A study of Mus musculus with 6 samples.

Results

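The genes described here are 49 mouse genes of the TGF-beta and BMP pathways, chosen by name: 12 ligands, 5 proteins that store or process ligands, 11 receptors, 6 extracellular antagonists, 7 Smads, 3 Smad co-repressors and 5 target genes. A gene was read through the array's probe sets, the groups of short probes that match its transcript, that are annotated to its symbol and to no other. Of the 49 genes 48 had such a probe set, 83 probe sets in all, on an array with 12393 genes of this kind. RNA came from 6 tumours on 1 Affymetrix array each. The knockdown tumours grew from 4T1 mouse mammary tumour cells with a knockdown of Bptf (Bptf KD, n = 3) by short hairpin RNAs that an MMLV retrovirus carried, and the control tumours from control 4T1 cells (n = 3). Both kinds grew for 21 days from 10000 cells in NSG hosts, at the fourth mammary fat pad. The labels give these mice as Ifrg2r -/-; the strain has no mature lymphocytes but keeps fibroblasts, fat cells, vessels and macrophages. The sources used here do not say what the control cells carried, which hairpins were used, how old the mice were or whether a line is 1 clone.

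TGF-beta family ligands are secreted as dimers, are partly held in the matrix by latent TGF-beta binding proteins, and signal through pairs of type I and type II receptor kinases. TGF-betas and activins lead to phosphorylation of Smad2 and Smad3, and BMPs to that of Smad1 and Smad5. Both kinds join Smad4 and then gather in the nucleus, and the inhibitory Smads, Smad6 and Smad7, are themselves target genes that damp the signal. In mammary tumours the pathway is known for restraining epithelial growth and for acting on stromal cells and the matrix, while the Id genes are classic targets of BMP signals.

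The arrays had median log2 values of 7.59 to 7.69. Taken over genes (no independent replicates), the correlation was 0.984 to 0.988 between Bptf KD tumours, 0.986 between controls 1 and 3, and 0.934 and 0.939 for control 2 with those controls. Bptf had log2 levels of 9.60, 9.56 and 9.99 in the Bptf KD tumours, against 10.69, 9.77 and 10.59 in controls 1, 2 and 3, a difference of -0.63 (SE 0.27; limma adjusted p = 0.372). Without control 2 the difference was -0.92 (limma adjusted p = 0.0306; the alternatives gave 0.0306 to 0.731), and on the 3 other probe sets of Bptf control 2 had the lowest level of all. The target thus went against the label in control 2, which is called the tumour labelled control 2 from here on and is counted among the controls unless stated. It also carried the most skeletal muscle signal, with a mean over 15 muscle genes of 11.64. The same mean was 6.34 to 9.41 in the Bptf KD tumours, and 8.99 and 6.55 in controls 1 and 3. For Actb the 3-prime minus 5-prime log2 gap, a sign of RNA quality, was 0.76 to 1.05 in the Bptf KD tumours, against 0.76, 1.23 and 0.77 in controls 1, 2 and 3. All 10 epithelial markers were bright enough to be tested, and their mean was 11.01 to 11.19 in the Bptf KD tumours and 10.01 to 10.84 in the controls.

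The largest differences among the pathway genes lay in 2 ligands, 1 secreted antagonist and 1 target gene. Bmp2 differed by 1.17 and Id3 by 0.96 on the log2 scale, both higher in every Bptf KD tumour than in any control. Gdf10 differed by -1.39 and Fstl1 by -1.12, both lower in every Bptf KD tumour than in any control. The mean of Gdf10 in Bptf KD tumours, 5.91, lay below 6.09, the level that bounds the lowest 30% of probe sets. Gdf10 was thus tested only through its level in the controls, and the size of its difference is uncertain. None of these passed the threshold with all 6 tumours: of the 41 pathway genes tested, limma called 0 at an adjusted p of 0.05, where it called 75 of 9258 genes (0.810%). With p under 0.05 before adjustment, 7 pathway genes had positive differences (17.1%, against 7.65% of all genes tested) and 2 had negative ones (4.88%, against 5.82%). The groups of 3 did not overlap for 6 higher pathway genes (14.6%, against 11.8% of all genes) and 2 lower ones (4.88%, against 8.18%). The pathway genes were chosen with earlier results of these data known, so these shares only describe the list. For each of the 8 genes with groups apart (Bmp2, Inhbb, Tgfb3, Tgfbr1, Smad7, Id3, Gdf10 and Fstl1) the exact two-sided permutation p was 0.1. That is the smallest that 3 tumours against 3 allow. Groups that lie apart always give this value, so it adds nothing to the separation itself.

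**Figure D1:**
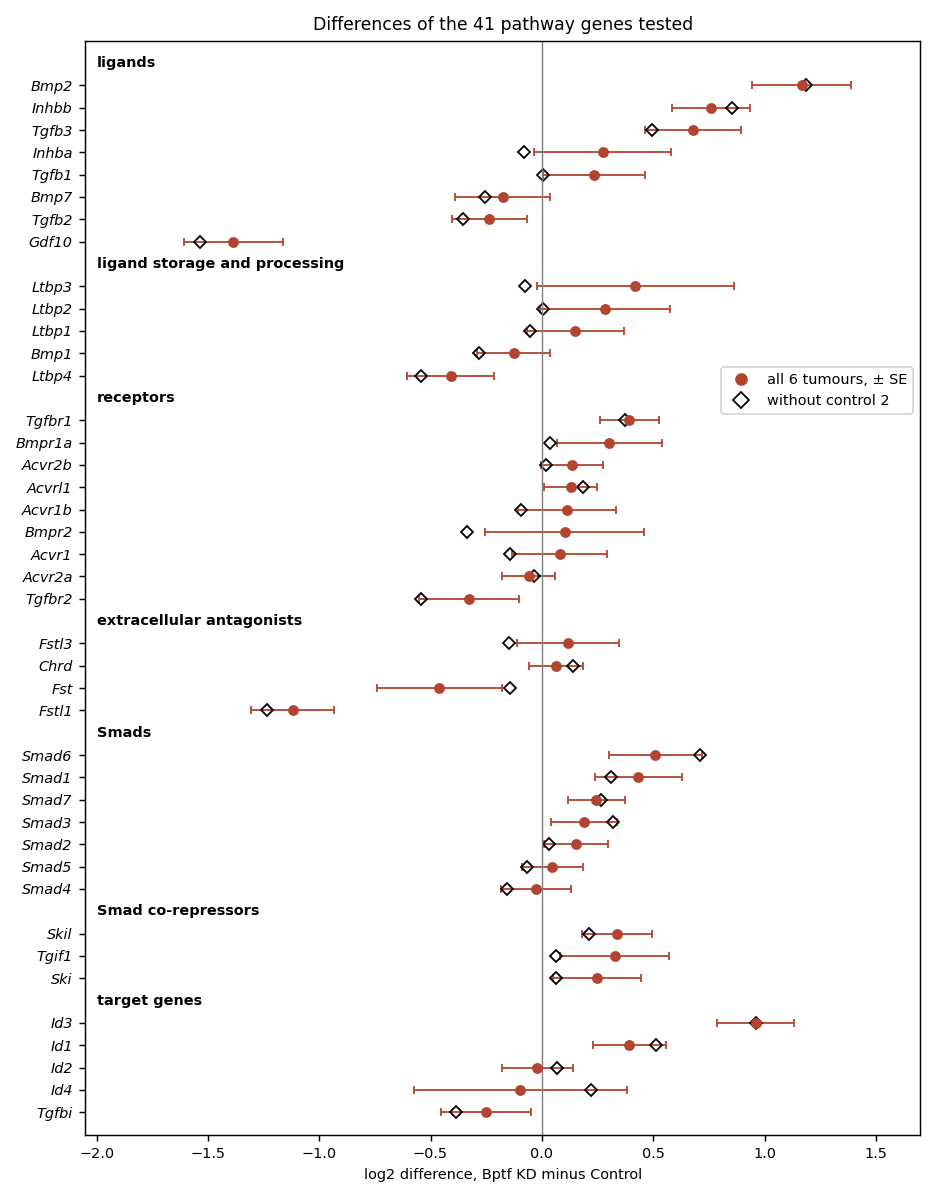
Log2 difference of each of the 41 pathway genes tested, Bptf KD minus control, grouped by role. Red points with bars give the value over all 6 tumours ± its SE from limma, and open diamonds the value without the tumour labelled control 2. Bmp2 (1.17) and Id3 (0.96) lie farthest to the right and Gdf10 (-1.39) and Fstl1 (-1.12) farthest to the left, and for these 4 genes the diamonds lie close to the points.

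Leaving out the tumour labelled control 2 changed the calls. Limma then called 5 pathway genes, 3 higher (Bmp2, Inhbb and Id3, against 1.93% of all genes higher) and 2 lower (Gdf10 and Fstl1, against 2.52% lower). Of these, Gdf10 passed the filter only through its level in the controls, so its call adds no support. The calls over all genes went up to 412. Over the 41 genes the median difference was 0.14 with all tumours (0.06 for all genes tested) and 0.01 without that control (0.04 for all genes tested). The sign turned in 10 of the 41 genes (24.4%, against 19.0% of all genes tested), 8 of them to negative: Inhba, Ltbp1, Ltbp3, Acvr1, Acvr1b, Bmpr2, Fstl3 and Smad5. In 20 of the 41 genes (48.8%, against 32.1% of all genes tested) the tumour labelled control 2 had the lowest level of the 6. Its median distance from the mean of controls 1 and 3 was -0.36 over the pathway genes and 0.03 over all genes tested. The part of its muscle signal and RNA quality in this was not tested.

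**Figure D2:**
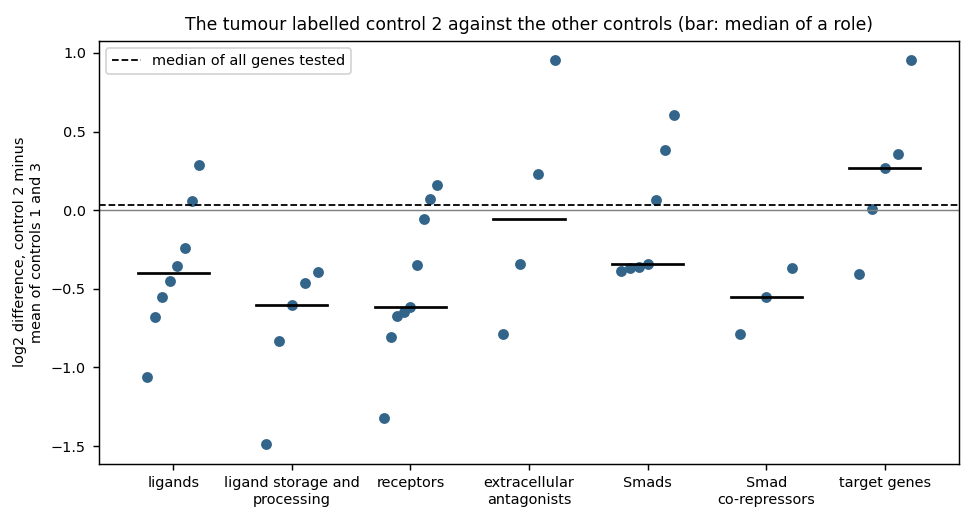
Log2 level of the tumour labelled control 2 minus the mean of controls 1 and 3, 1 point for each pathway gene tested, by role, with the median of each role as a bar and the median of all genes tested (0.03) as a dashed line. All 5 storage and processing genes and all 3 co-repressors lie below 0, while 4 of the 5 target genes lie above it.

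Of the pathway genes with a probe set, 7 had a mean in the lowest 30% of probe sets (below a log2 value of 6.09, called dim here) and were not tested. These are the ligands Bmp4, Bmp5 and Bmp6, the receptors Tgfbr3 and Bmpr1b, and the BMP antagonists Grem1 and Nog. Their levels ran from 4.50 to 6.16 over the 6 tumours, and their differences from -0.32 to 0.15. Such array values carry no detection call, so dim levels do not show whether the genes were expressed. Gdf15, a ligand of the stress response, had no probe set of its own here.

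The differences of the ligands ran from -1.39 to 1.17. Bmp2, a BMP ligand that acts through Bmpr1a and Bmpr2, had log2 levels of 8.08, 7.72 and 7.23 in Bptf KD tumours 1, 2 and 3, against 6.63, 6.55 and 6.35 in controls 1, 2 and 3. The lowest Bptf KD tumour lay 0.60 above the highest control. The means were 7.68 ± 0.43 in Bptf KD tumours and 6.51 ± 0.14 in controls (SD, n = 3 each), a 2.24-fold difference (SE 0.22 on the log2 scale; limma adjusted p = 0.0836). Without the tumour labelled control 2, whose level lay between those of the other controls, the difference was 1.19 (limma adjusted p = 0.0485; the alternatives gave 0.0430 to 0.288). The mean of the 10 epithelial markers also lay higher in every Bptf KD tumour than in any control. Of their 10 differences 9 were positive (90%, against 59.6% of all genes tested). The groups lay apart for 3, all higher (30%, against 11.8%), and 0 were called, where 0.810% of all genes tested were called. The part of epithelial cells in the positive differences of Bmp2, Inhbb, Tgfb3 and Id3 was not tested.

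Inhbb encodes the beta B chain of activin B and inhibin B. Its brighter probe set gave 10.19, 10.30 and 9.96 in the Bptf KD tumours, against 9.51, 9.58 and 9.08 in controls 1, 2 and 3. All Bptf KD tumours lay above all controls, by a mean of 0.76 (SE 0.18; limma adjusted p = 0.131), and by 0.86 without the tumour labelled control 2 (limma adjusted p = 0.0447; the alternatives gave 0.0447 to 0.419). The second probe set of Inhbb did not show this. It gave 7.16, 6.91 and 7.38 in the Bptf KD tumours, against 7.16, 7.29 and 6.97 in the controls, a difference of 0.01. Thus the difference of Inhbb rests on 1 of its 2 probe sets.

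Tgfb3, 1 of the 3 TGF-beta ligands, had levels of 9.45, 9.39 and 9.77 in the Bptf KD tumours, against 9.24, 8.49 and 8.84 in the controls. The groups did not overlap, and the difference of 0.68 (SE 0.21; limma adjusted p = 0.249) was 0.50 without the tumour labelled control 2, the lowest of the 6. Tgfb1 differed by 0.23 and Tgfb2 by -0.24, and for both the groups overlapped. Without the tumour labelled control 2 the difference was 0.01 for Tgfb1 and -0.355 for Tgfb2 (limma adjusted p = 0.186 for Tgfb2). For Tgfb2 every Bptf KD tumour lay below controls 1 and 3. Inhba, the beta A chain of activin A, differed by 0.27 with all tumours and by -0.08 without that control. Bmp7, a BMP ligand, differed by -0.18 on its brightest probe set and by -0.56 and -0.26 on the others, none past the threshold. Without the tumour labelled control 2 these were -0.26, -0.895 and -0.58. The smallest limma adjusted p among them, over all probe sets, was then 0.0624.

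Gdf10, a secreted ligand of the BMP3 branch, went the other way. Its levels were 5.57, 6.24 and 5.93 in the Bptf KD tumours, against 7.59, 7.00 and 7.31 in controls 1, 2 and 3. The highest Bptf KD tumour lay 0.76 below the lowest control, and the means were 5.91 ± 0.34 in Bptf KD tumours and 7.30 ± 0.30 in controls (SD, n = 3 each; limma adjusted p = 0.0515). Without the tumour labelled control 2, its lowest control, the difference was -1.54 (limma adjusted p = 0.0187; the alternatives gave 0.0187 to 0.251). The mean in Bptf KD tumours lay below the dim level, so Gdf10 passed the filter through the controls, and no fold is given. Fibroblast markers moved with it: all 16 were negative, as were 3687 of all 9258 genes tested. The Bptf KD tumours had means of 10.23 to 10.43, against 11.27 to 11.47 in the controls. Of the 16, 13 had groups apart (81.2%, against 8.18% of all genes lower), and limma called 5. The 11 adipocyte markers tested were negative too, with means of 6.83 to 7.80 in the Bptf KD tumours and 9.73 to 10.60 in the controls. All 11 had groups apart, and limma called 7, where it called 0.810% of all genes tested. In bulk tumours fewer cells of a type and less RNA per cell cannot be told apart, and the part of these cells in the difference of Gdf10 was not tested.

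**Figure D3:**
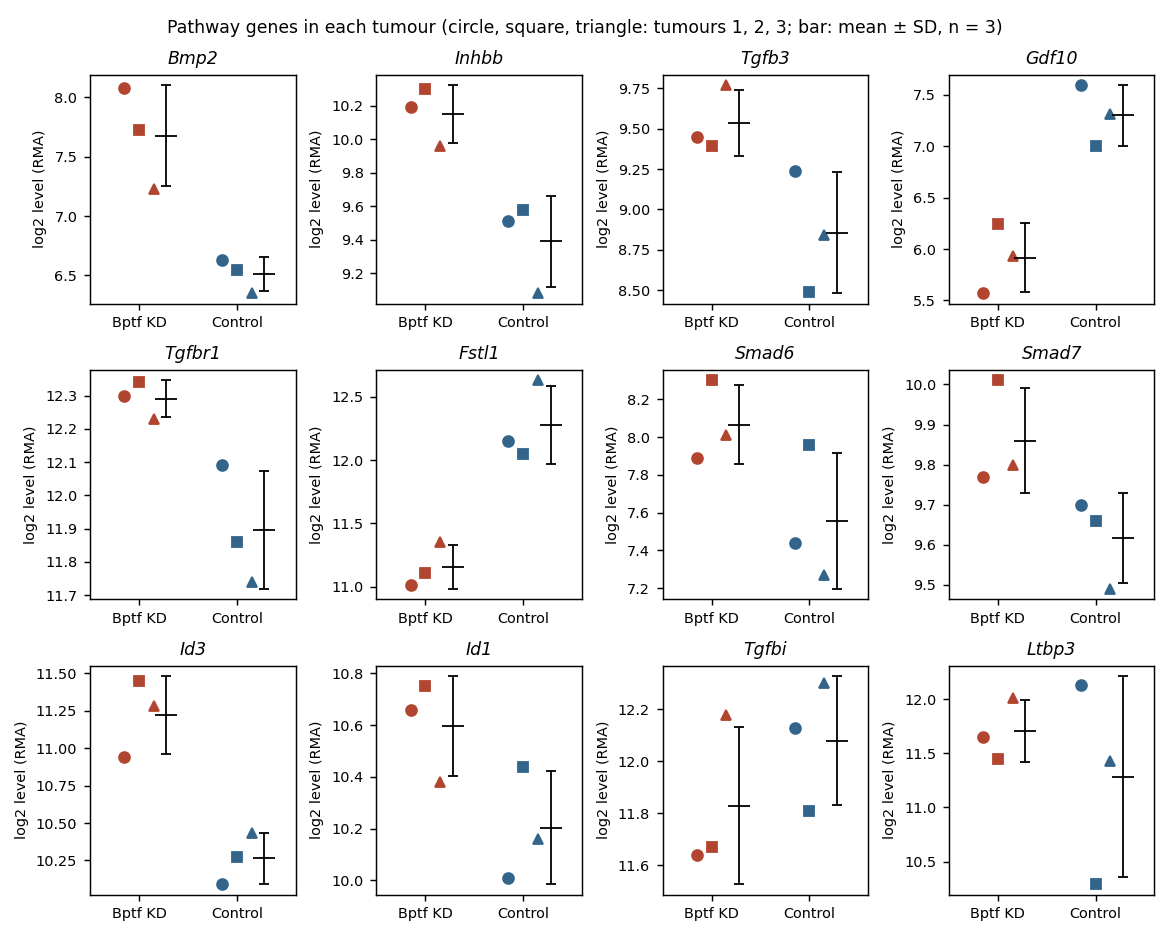
Log2 level (RMA, vertical axes, each on its own scale and not starting at 0) of 12 pathway genes in every tumour, with Bptf KD to the left of control, circles, squares and triangles for tumours 1, 2 and 3, and bars for the mean ± SD (n = 3). The groups lie apart for Bmp2, Inhbb, Tgfb3, Gdf10, Tgfbr1, Fstl1, Smad7 and Id3, and overlap for Smad6, Id1, Tgfbi and Ltbp3, where control 2 is at 10.29.

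**Figure D4:**
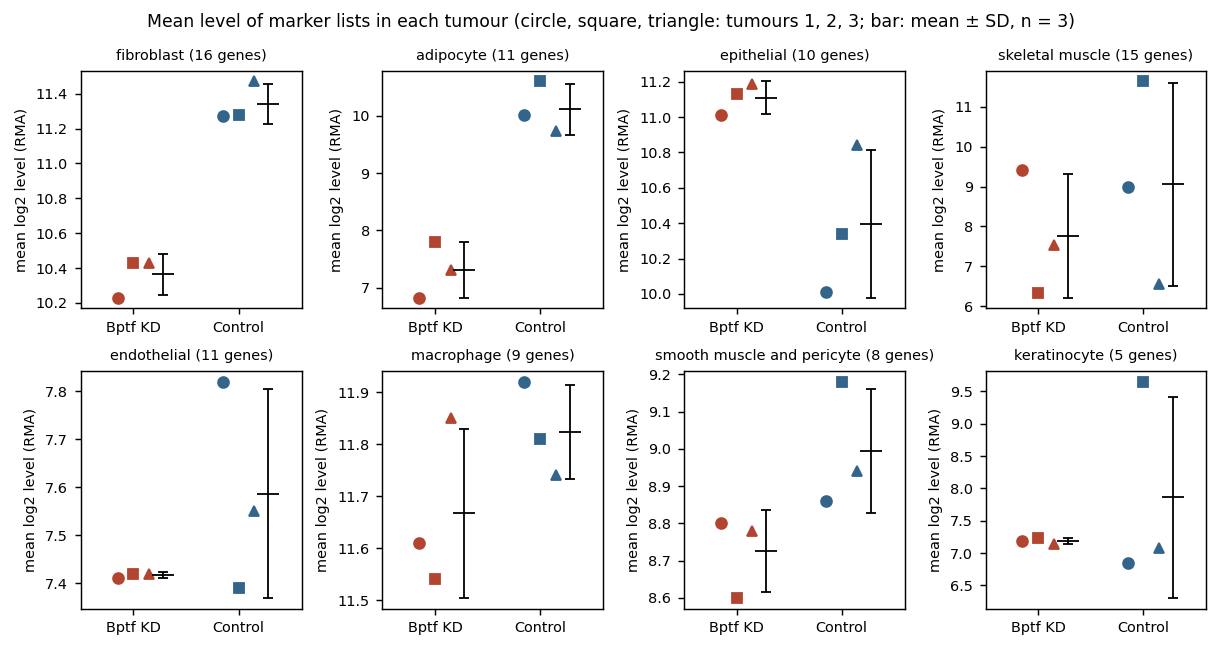
Mean log2 level (RMA, vertical axes, each on its own scale and not starting at 0) of 8 marker lists in every tumour, drawn in the same way, with the number of genes tested in each title. The fibroblast list (10.23 to 10.43 in Bptf KD tumours, 11.27 to 11.47 in controls) and the adipocyte list separate the groups, lower in Bptf KD. So does the smooth muscle and pericyte list (8.60 to 8.80, against 8.86 to 9.18). The epithelial list separates them the other way (11.01 to 11.19, against 10.01 to 10.84). Control 2 stands apart in the skeletal muscle list, at 11.64, and in the keratinocyte list, at 9.65.

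The promoters of Inhbb and Gdf10 are shown because these ligands were called in opposite directions without the tumour labelled control 2. The limits given above hold here: Inhbb rests on 1 of its 2 probe sets, and Gdf10 passed the filter through the controls. Bmp2, the other ligand called higher, had no match among the RefSeq promoters used. They are the 250 bases before the RefSeq start (GRCm38.p6), read 5′ to 3′ on the gene's strand, with capitals for CAGAC, a core that Smad3 and Smad4 bind, and for GGCGCC, a core described for BMP Smads. Both motifs were searched on both strands, so that CAGAC also shows as GTCTG, and they share no letters in these promoters. Inhbb lies at chr1:119422249-119422498 on the minus strand and Gdf10 at chr14:33923337-33923586 on the plus strand. Gdf10 held 1 CAGAC, starting 98 bases before the start, and Inhbb held neither motif in this window.
Inhbb: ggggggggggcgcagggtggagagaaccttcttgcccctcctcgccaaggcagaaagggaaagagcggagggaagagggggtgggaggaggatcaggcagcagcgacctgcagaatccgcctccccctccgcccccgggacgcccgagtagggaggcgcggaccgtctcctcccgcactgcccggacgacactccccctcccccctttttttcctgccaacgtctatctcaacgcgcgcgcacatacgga
Gdf10: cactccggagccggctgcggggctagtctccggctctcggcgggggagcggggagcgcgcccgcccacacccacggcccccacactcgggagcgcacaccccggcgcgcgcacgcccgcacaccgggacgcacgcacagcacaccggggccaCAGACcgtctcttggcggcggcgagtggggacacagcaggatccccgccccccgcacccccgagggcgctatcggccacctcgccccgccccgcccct

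Of the 49 genes 36 matched the RefSeq promoter table, with 49 promoters, since several genes have more than 1 start. CAGAC stood in 24 of these (49.0%, against 42.2% of all 32851 promoters of the same length) and GGCGCC in 12 (24.5%, against 9.59%). These are matches of letters, not measured sites. Starts of the same gene were counted separately and base composition was not taken into account, so the shares only describe these promoters. Enrichment was not tested.

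Among the genes that store or process ligands, none had groups apart. Ltbp1, Ltbp3 and Ltbp4 encode latent TGF-beta binding proteins, which hold the latent ligand in the matrix, and Ltbp2 is a related microfibril protein. Ltbp4 had levels of 6.92, 6.80 and 7.32 in the Bptf KD tumours, against 7.67, 7.16 and 7.44 in the controls, a difference of -0.41 (SE 0.19; limma adjusted p = 0.428). Bptf KD tumours 1 and 2 lay below every control, and Bptf KD 3 lay above the tumour labelled control 2. Without that control the difference of Ltbp4 was -0.54 (limma adjusted p = 0.118). Ltbp3 gave 11.65, 11.45 and 12.01 in the Bptf KD tumours, against 12.13, 10.29 and 11.43 in controls 1, 2 and 3. Its difference of 0.42 came with an SD of 0.93 among controls and was -0.08 without the tumour labelled control 2. The same control was the lowest tumour for Ltbp2, with 10.04, 9.85 and 10.11 in the Bptf KD tumours, against 10.36, 9.16 and 9.63 in the controls. The difference of Ltbp2 was 0.28, and that of Ltbp1 0.15, neither past the threshold. They were 0.01 and -0.05 without the tumour labelled control 2. Bmp1, a metalloprotease that cleaves procollagens and the BMP antagonist chordin, had 10.52, 10.64 and 10.59 in the Bptf KD tumours, against 10.77, 10.40 and 10.96 in the controls. Its 2 probe sets above the dim level differed in sign, at -0.13 and 0.08, and the brighter gave -0.28 without the tumour labelled control 2.

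The differences of the receptors ran from -0.33 to 0.39, and none passed the threshold. Tgfbr1, the type I receptor for TGF-beta, had levels of 12.30, 12.34 and 12.23 in the Bptf KD tumours, against 12.09, 11.86 and 11.74 in the controls. All Bptf KD tumours lay above all controls, by a mean of 0.39 (SE 0.13; limma adjusted p = 0.274), and by 0.38 without the tumour labelled control 2. Its type II partner Tgfbr2 gave 11.42, 11.52 and 11.87 in the Bptf KD tumours, against 12.06, 11.50 and 12.23 in the controls. Here the difference was negative, at -0.33 (SE 0.22; limma adjusted p = 0.612) and -0.54 without the tumour labelled control 2, and a second, dimmer probe set differed by 0.04. Thus the signs of the TGF-beta receptor pair were opposite on their brightest probe sets, with neither past the threshold.

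Bmpr1a, a type I BMP receptor, had 10.74, 10.59 and 10.83 in the Bptf KD tumours, against 10.65, 9.88 and 10.72 in the controls. Its difference of 0.30 was 0.04 without the tumour labelled control 2, and its 5 probe sets ran from 0.06 to 0.42. Bmpr2, the type II BMP receptor, showed the same control more clearly, with 6.24 there and 7.15 to 7.68 in the other 5 tumours, and its difference of 0.10 turned to -0.34 without it. Acvr1, a type I receptor for BMPs, gave 9.91, 10.11 and 10.00 in the Bptf KD tumours, against 10.30, 9.48 and 10.00 in the controls. Acvr1b, the type I receptor for activin, gave 9.10, 9.38 and 9.19 in the Bptf KD tumours, against 9.54, 8.70 and 9.09 in the controls. For both the groups overlapped, and their probe sets differed in sign (0.23, 0.08 and -0.07 for Acvr1; 0.11 and -0.11 for Acvr1b). The activin type II receptors Acvr2a and Acvr2b differed by -0.06 and 0.14, and Acvrl1, a type I receptor of endothelial cells, by 0.13, none past the threshold. Acvr1 differed by -0.14, Acvr1b by -0.09, Acvr2a by -0.04 and Acvr2b by 0.02 without the tumour labelled control 2. Endothelial markers had means of 7.41 to 7.42 in the Bptf KD tumours, against 7.82, 7.39 and 7.55 in controls 1, 2 and 3. The single markers differed: of 11 tested, 3 were lower with groups apart (27.3%, against 8.18% of all genes tested). Another 1 was higher with groups apart (9.09%, against 11.8%). Limma called 1 of the 11, a lower one, where it called 0.810% of all genes tested.

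Among the extracellular antagonists Fstl1 stood apart. Fstl1 is a secreted glycoprotein made by mesenchymal cells and reported to restrain BMP signals. Its levels were 11.01, 11.11 and 11.35 in the Bptf KD tumours, against 12.15, 12.05 and 12.63 in controls 1, 2 and 3. The highest Bptf KD tumour lay 0.70 below the lowest control, and the means were 11.16 ± 0.17 in Bptf KD tumours and 12.28 ± 0.31 in controls (SD, n = 3 each), a 2.17-fold difference (SE 0.19 on the log2 scale; limma adjusted p = 0.0596). Both probe sets gave this size, at -1.12 and -1.18. Without the tumour labelled control 2, the lowest control on the brighter probe set, the difference was -1.23 (limma adjusted p = 0.0225; the alternatives gave 0.0225 to 0.249). It moved with the fibroblast markers given beside Gdf10, and their part in it was not tested.

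The activin antagonist Fst gave 7.91, 8.10 and 8.09 in the Bptf KD tumours, against 7.98, 9.13 and 8.37 in controls 1, 2 and 3. The difference of -0.46 (SE 0.28; limma adjusted p = 0.562) was -0.14 without the tumour labelled control 2, the highest of the 6. Keratinocyte markers were also highest in that tumour, with a mean of 9.65, against 6.85 to 7.24 in the other 5, and their part in Fst was not tested. Chrd, the BMP antagonist chordin, was near the dim level, with 6.23, 6.34 and 6.27 in the Bptf KD tumours, against 6.11, 6.37 and 6.17 in the controls. It differed by 0.06, and by 0.14 without the tumour labelled control 2. Fstl3, which binds activins, differed by 0.12 with all tumours and by -0.15 without the tumour labelled control 2. Thus the other 3 antagonists tested had overlapping groups.

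Both inhibitory Smads had positive differences. Smad6, which restrains BMP Smads, had 7.89, 8.30 and 8.01 in the Bptf KD tumours, against 7.44, 7.96 and 7.27 in the controls. Bptf KD 2 and 3 lay above every control, and Bptf KD 1 lay just below the tumour labelled control 2. The difference was 0.51 (SE 0.21; limma adjusted p = 0.365), and 0.71 without that control (limma adjusted p = 0.0513; the alternatives gave 0.0513 to 0.741). Smad7, which restrains both branches, gave 9.77, 10.01 and 9.80 in the Bptf KD tumours, against 9.70, 9.66 and 9.49 in the controls, with the groups apart by 0.07 and a difference of 0.24 (SE 0.13; limma adjusted p = 0.488). Neither passed the threshold in any alternative tried.

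The signal-carrying Smads had differences from -0.03 to 0.43. Smad1, a BMP Smad, had 11.18, 11.44 and 11.18 in the Bptf KD tumours, against 11.23, 10.59 and 10.68 in the controls, a difference of 0.43 (SE 0.20; limma adjusted p = 0.409) that was 0.45 on its second probe set. Control 1 lay within the Bptf KD range. Smad2 differed by 0.15, Smad3 by 0.19 and Smad5 by 0.05, none past the threshold. These values were 0.03, 0.32 and -0.07 without the tumour labelled control 2. Smad3 passed the filter through the Bptf KD tumours, with a mean of 6.24 there and 6.05, below the dim level, in the controls. The common Smad4 gave 11.33, 11.61 and 11.54 in the Bptf KD tumours, against 11.60, 11.26 and 11.70 in the controls, and its 3 probe sets ran from -0.03 to 0.07. These differences of Smad4 were smaller than the spread between replicates, and that of the brightest probe set was -0.16 without the tumour labelled control 2.

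The co-repressors Skil, Tgif1 and Ski, which hold back Smad-driven transcription, all had positive differences, and in each the tumour labelled control 2 was the lowest of the 6. Skil, itself a TGF-beta target, had 12.14, 11.92 and 12.16 in the Bptf KD tumours, against 11.95, 11.49 and 11.77 in the controls. Its difference was 0.34 (SE 0.16; limma adjusted p = 0.423), with 0.31 on the second probe set and 0.21 without that control. Tgif1 gave 10.53, 10.68 and 10.56 in the Bptf KD tumours, against 10.73, 9.74 and 10.32 in the controls. Ski gave 9.63, 9.72 and 9.77 in the Bptf KD tumours, against 9.84, 9.09 and 9.45 in the controls. For Tgif1 and Ski control 1 lay above every Bptf KD tumour, and their differences of 0.33 and 0.25 were 0.06 each without the tumour labelled control 2.

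The 4 Id genes gave differences from -0.10 to 0.96. They encode helix-loop-helix proteins without a DNA-binding region, which hold back differentiation factors. Id3 had levels of 10.94, 11.45 and 11.28 in the Bptf KD tumours, against 10.09, 10.27 and 10.43 in controls 1, 2 and 3. The lowest Bptf KD tumour lay 0.51 above the highest control, and the means were 11.22 ± 0.26 in Bptf KD tumours and 10.26 ± 0.17 in controls (SD, n = 3 each), a 1.95-fold difference (SE 0.17 on the log2 scale; limma adjusted p = 0.0666). Without the tumour labelled control 2, the middle control, the difference was again 0.96 (limma adjusted p = 0.0405; the alternatives gave 0.0405 to 0.274). Id1 gave 10.66, 10.75 and 10.38 in the Bptf KD tumours, against 10.01, 10.44 and 10.16 in the controls. Only Bptf KD 3 and the tumour labelled control 2 crossed, and the difference was 0.39 (SE 0.16; limma adjusted p = 0.369), or 0.51 without that control.

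Id2 had 11.35, 11.55 and 11.25 in the Bptf KD tumours, against 11.48, 11.58 and 11.15 in the controls. Its brightest probe set thus differed by -0.02, while the 2 others gave 0.23 and 0.34, none past the threshold. Id4 varied widely among replicates, with 8.31, 6.56 and 7.14 in the Bptf KD tumours, against 7.24, 8.07 and 6.99 in the controls, and its 3 probe sets gave -0.10, 0.22 and -0.61. Their brightest probe sets differed by 0.07 for Id2 and 0.22 for Id4 without the tumour labelled control 2. Tgfbi, a secreted matrix protein induced by TGF-beta, gave 11.64, 11.67 and 12.18 in the Bptf KD tumours, against 12.13, 11.81 and 12.30 in the controls. All 4 of its probe sets were negative, from -0.45 to -0.25. On the brightest Bptf KD 3 lay within the control range (limma adjusted p = 0.669), and the difference was -0.38 without the tumour labelled control 2. On 1 of the 4 all Bptf KD tumours (10.58, 10.59 and 11.08) lay below all controls (11.09, 11.10 and 11.25), and none of the 4 passed the threshold. Its difference had the sign of the fibroblast markers, whose part in it was not tested.

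The promoters of Id3, Id2 and Id4 are shown because the groups lay apart for Id3 and overlapped for Id2 and Id4. Id1, whose groups also overlapped, had no match among the RefSeq promoters used. The promoters shown are read and marked as those of Inhbb and Gdf10. Id3 lies at chr4:136143572-136143821 on the plus strand, Id2 at chr12:25096093-25096342 on the minus strand and Id4 at chr13:48260866-48261115 on the plus strand. Id3 held CAGAC on both strands, starting 167 and 68 bases before the start, and no GGCGCC. Id2 and Id4 each held 1 GGCGCC, starting 231 and 148 bases before the start, and no CAGAC.
Id3: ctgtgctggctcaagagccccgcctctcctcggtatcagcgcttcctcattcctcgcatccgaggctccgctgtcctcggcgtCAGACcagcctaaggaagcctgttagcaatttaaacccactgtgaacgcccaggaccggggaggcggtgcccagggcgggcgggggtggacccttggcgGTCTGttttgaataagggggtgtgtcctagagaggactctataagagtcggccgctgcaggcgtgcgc
Id2: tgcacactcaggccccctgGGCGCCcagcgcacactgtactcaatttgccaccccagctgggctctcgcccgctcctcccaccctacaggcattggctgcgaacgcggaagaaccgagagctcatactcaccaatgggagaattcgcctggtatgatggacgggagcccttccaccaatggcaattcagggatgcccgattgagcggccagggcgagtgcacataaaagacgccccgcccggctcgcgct
Id4: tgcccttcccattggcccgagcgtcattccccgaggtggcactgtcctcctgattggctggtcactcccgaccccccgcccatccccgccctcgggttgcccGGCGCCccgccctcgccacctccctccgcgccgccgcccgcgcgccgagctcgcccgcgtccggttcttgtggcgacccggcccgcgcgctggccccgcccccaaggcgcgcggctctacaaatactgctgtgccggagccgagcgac

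Probe sets of the same gene did not always give the same difference. Of 68 probe sets of pathway genes above the dim level, a fit over all 14588 probe sets called 0 (0.260% of all were called) and, without the tumour labelled control 2, 6 (3.45% of all were called). Of the 17 pathway genes with several probe sets above the dim level, 7 had both signs: Acvr1, Acvr1b, Tgfbr2, Bmp1, Smad4, Id2 and Id4. In all 7 the difference on the brightest probe set was at most 0.33 in size.

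**Figure D5:**
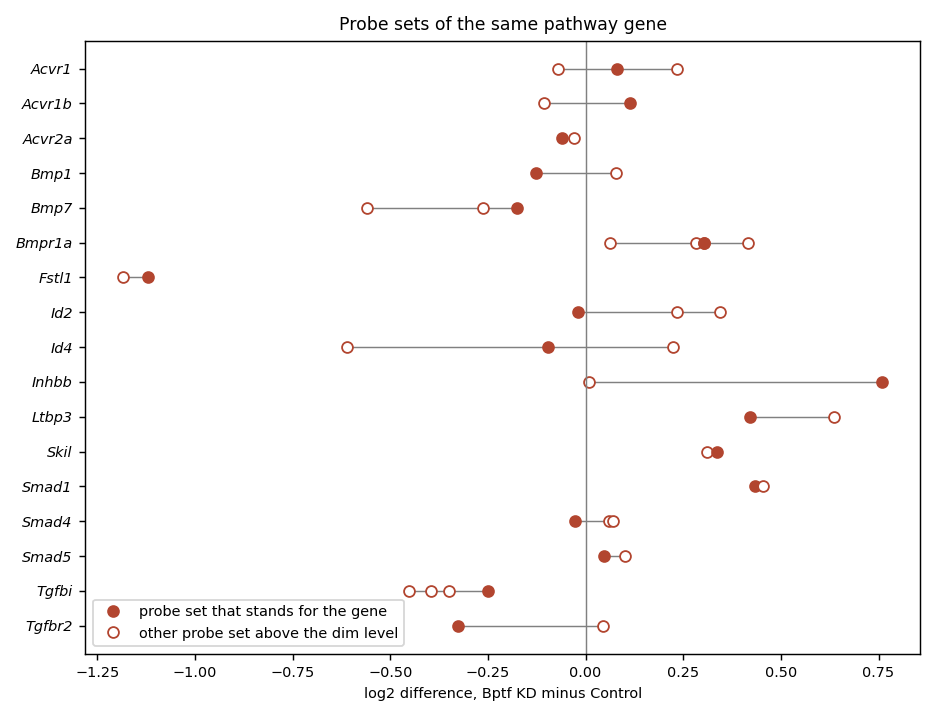
Log2 difference, Bptf KD minus control, of every probe set above the dim level for the 17 pathway genes with several, filled where the probe set stands for the gene. The 2 probe sets of Fstl1 lie together at -1.18 and -1.12, while those of Inhbb lie at 0.01 and 0.76.

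Other genes of the pathway were read from a list of 62 ligands, receptors, antagonists and regulators, of which 27 were tested, and limma called 0 of them. The differences were positive in 13 and negative in 14, with a median of -0.0033 (0.06 for all genes tested), and 1, a positive one, had p under 0.05 before adjustment (3.7%, against 7.65% of all genes tested). Tgif2, a co-repressor related to Tgif1, was that gene: it differed by 0.45 (limma adjusted p = 0.209), with all Bptf KD tumours above all controls. The next by p were the ligand Gdf2 (-0.17), the integrin chain Itgav (-0.27), which takes part in releasing latent TGF-beta, and the kinase Hipk2 (-0.19).

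Of a list of 23 further target genes 20 were tested, and limma called 0. The differences were positive in 8 and negative in 12, with a median of -0.09, and p before adjustment was under 0.05 for 1 positive (5%, against 7.65% of all genes tested) and 4 negative ones (20%, against 5.82%). The 4 genes with the smallest p were Tsc22d1, Tnc, Angptl4 and Postn. Tsc22d1, a leucine zipper gene first known as induced by TGF-beta, had 13.45, 13.72 and 13.42 in the Bptf KD tumours, against 12.91, 13.10 and 12.90 in the controls. On the brightest of its 6 probe sets its difference was 0.56 (SE 0.14, limma adjusted p = 0.147), and its other probe sets were not compared. Without the tumour labelled control 2 it was 0.62 and passed the threshold (limma adjusted p = 0.0487, up to 0.448 with another tumour left out). It was then the 1 gene of the 20 called, where 1.93% of all genes tested were called higher. The matrix genes Tnc and Postn differed by -0.55 and -0.57, and Angptl4, a secreted lipase inhibitor, by -0.97. All 3, and Tgfb1i1 (-0.32), a focal adhesion protein named after its values were seen, were lower in every Bptf KD tumour than in any control. These 4 are 20% of the 20 tested, against 8.18% of all genes tested. Higher in every Bptf KD tumour than in any control were 2 (10%, against 11.8%). They are Tsc22d1 and Ccn2, and Ccn2 was also named after its values were seen. Ccn2 differed by 0.47 (limma adjusted p = 0.411), and by 0.28 without the tumour labelled control 2. The fibroblast, adipocyte, and smooth muscle and pericyte marker means lay apart in the direction of the 4 lower genes. The part of these cells in the differences was not tested.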

How the data were processed

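Biotin-labelled cRNA made from 500 ng of total RNA of each of 6 tumours was measured on Affymetrix arrays, with necrotic tissue cut away where present, per the labels' protocols. The deposited values are log2 levels that the authors made with RMA (background correction, quantile normalisation, 1 value per probe set), per the submitters' processing notes; its version is not stated, and the base was taken as 2 from the range of 2.98 to 15.17. The table holds 22690 probe sets, 64 of them controls. In GEO's platform annotation 20380 have 1 gene and 691 several, and the other 1555 are unnamed here. Symbols were checked by Entrez identifier against a RefSeq table (GRCm38.p6).

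Each gene was read from its brightest probe set by mean over all arrays, and probe sets with a mean in the lowest 30% (below 6.09) were left out, which left 9258 genes. The groups were set against each other with lmFit and eBayes (limma 3.58.1, R 4.3.3), with Benjamini-Hochberg adjustment over all genes tested and a threshold of 0.05. A separate fit took all 14588 probe sets above that level. Single values were also compared by exact permutation. The procedure was tested on simulated data. Differences are Bptf KD minus control. The number of arrays limits the precision, and the sources used here do not say whether each mouse gave 1 tumour.

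The pathway genes, the other lists, the tests and the rule for named genes were chosen with earlier results of these data known. Every pathway gene is named; values in all 6 tumours are given for genes past the threshold with all tumours or without control 2, for the 3 with the smallest p in each role, and for those whose probe sets differ in sign; Tgfb3 was added after its values were seen. From the 2 lists of other genes the 4 with the smallest p are named. Tgfb1i1 and Ccn2 were added later. Alternatives covered the filter, the choice of probe set, scaling, variance moderation, a replicate block, the muscle list as a covariate and leaving out each tumour.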

Additional observations from a re-analysis of the deposited data

How the results depend on the processing

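Over 41 pathway genes and Bptf, 610 of 656 values under an alternative kept their direction and their side of the threshold, 16 passed the threshold only there, and 30 turned. The count of genes called over all genes was 42 with the lowest 50% of probe sets left out, 1 with an ordinary test without moderated variance, 49 with the skeletal muscle list as a covariate and 0 to 412 with a tumour left out. The count of pathway genes called was 2 with a gene's probe sets averaged, with median centring and with the muscle covariate (Gdf10 and Fstl1 each time), 1 with eBayes with trend and robust settings (Gdf10), and 0 to 5 with a tumour left out. Where Gdf10 is counted here, it passed the filter only through the controls. The count of pathway genes called was 0 without control 1, control 3 or any Bptf KD tumour. With a replicate block it was 3 (Bmp2, Id3 and Fstl1), with 1 other pathway gene (Angptl4, lower), 2 probe sets and 107 genes overall. Whether the shared replicate numbers pair the tumours cannot be told from 3 tumours in each group. Same-numbered deviations from the group means correlated at 0.00559, 0.279 and 0.372. Bptf KD 1 correlated better with control 2 (0.108). Bptf KD 2 and 3 correlated best with the control of their own number, though Bptf KD 3 nearly as well with control 1 (0.353). Leaving out a tumour gave 0 to 1 other pathway genes and 0 to 6 probe sets. The median difference of the pathway genes ran from 0.01 to 0.27. Some signs turned. With the muscle covariate Acvr1 was -0.04, Bmpr2 -0.12, Fstl3 -0.02, Id2 0.04, Id4 0.31 and Smad5 -0.01. With the probe set of the largest SD Bmp1 was 0.08, Id2 0.34 and Smad4 0.06, with the mean of probe sets Id2 was 0.19 and Smad4 0.03, and with a second quantile normalisation Smad5 was 0.00. With a tumour left out the ranges were -0.14 to 0.27 for Acvr1, -0.09 to 0.33 for Acvr1b, -0.34 to 0.02 for Bmp7, -0.34 to 0.38 for Bmpr2, -0.15 to 0.27 for Fstl3, -0.15 to 0.07 for Id2, -0.58 to 0.29 for Id4, -0.08 to 0.45 for Inhba, -0.05 to 0.38 for Ltbp1, -0.08 to 0.84 for Ltbp3, -0.16 to 0.06 for Smad4 and -0.07 to 0.13 for Smad5. The causes were not tested. Dim probe sets limit what can be said of Bmp4, Bmp5, Bmp6, Tgfbr3, Bmpr1b, Grem1, Nog and Gdf10.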
